A study of Mus musculus with 8 samples.

Results

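The same substitution, methionine for the lysine at position 36 (K36M), was compared in 2 histones: C3H10T1/2 cells with a histone H3.1 K36M transgene against C3H10T1/2 cells with a histone H3.3 K36M transgene. C3H10T1/2 is a mouse mesenchymal cell line of embryonic origin that can be driven towards cartilage, bone, fat or muscle. All 8 lines of the study stably express a transgene with FLAG and HA tags and were used between passages 10 and 15. They are H3.1 K36M and H3.1 K36R, and the H3.3 lines K36M, K36R, K36I, K36A, K36L and WT (wild type), where the last letter names the residue in place of the lysine. Each line gave 1 RNA-seq library, so a difference between H3.1 K36M and H3.3 K36M has 1 library a side and no replicate check. The sources used here do not say whether a line is 1 clone or a pool, or which promoter drives the transgene. A gene was kept where the mean of its H3.1 K36M and H3.3 K36M values was at least 1 above the lowest value of the table on the deposited log2 scale, a mean of about 31 normalised reads, and 14462 of 31276 genes met this. The same difference with arginine, H3.1 K36R minus H3.3 K36R, shares no library with it and was set beside every K36M difference.

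Histone H3 packs DNA into nucleosomes, and methylation of its lysine 36 marks transcribed and intergenic chromatin. H3.1 is made mainly in S phase and is deposited with DNA replication, whereas H3.3 is made throughout the cell cycle and is also deposited where nucleosomes turn over. The K36M substitution is known to inhibit the methyltransferases of lysine 36, while K36R only removes the methylated residue. The mouse genes of both histones differ in codons near lysine 36, of which only that of residue 31 changes the amino acid. They are printed here from residue 28 to residue 37, counted without the initiator methionine, with the codon of residue 31, where H3.1 and H3.3 differ, and the codon of residue 36, the one that is substituted, in capitals. These are the cell's own genes in the GENCODE M21 transcripts (GRCm38): Hist1h3a, an H3.1 gene, lies at chr13:23761853-23762386, H3f3a at chr1:180800832-180813943 and H3f3b at chr11:116021912-116027962, all on the minus strand. The transgene sequences are not in the sources used here.
Hist1h3a: agcgccccgGCCaccggcggcgtgAAGaag
H3f3a: agtgcgcccTCTactggaggggtgAAGaaa
H3f3b: agcgcgcccTCTaccggcggggtgAAGaag

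Promoters that hold the motifs of inflammatory genes are shown because genes of that kind led the difference between the lines. The windows come from RefSeq promoters on GRCm38.p6 and each is printed 5′ to 3′ on the strand of its gene, with the motif matches in capitals. Trim30a (chr7:104465194-104465313, minus strand) and Gbp3 (chr3:142559924-142560043, plus strand) hold a short form of the interferon response element, read here on the opposite strand, and the Gbp3 window holds 2 overlapping matches. Cxcl1 (chr5:90891119-90891238, plus strand) and Il6 (chr5:30012994-30013113, plus strand) hold a form of the kappaB site.
Trim30a: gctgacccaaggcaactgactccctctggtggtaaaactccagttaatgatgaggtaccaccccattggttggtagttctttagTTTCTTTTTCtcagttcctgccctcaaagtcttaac
Gbp3: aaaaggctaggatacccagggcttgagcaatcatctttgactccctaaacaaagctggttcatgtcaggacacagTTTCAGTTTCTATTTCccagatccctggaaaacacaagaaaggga
Cxcl1: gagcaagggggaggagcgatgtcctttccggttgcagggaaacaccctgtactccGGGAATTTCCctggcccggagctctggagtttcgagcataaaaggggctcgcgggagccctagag
Il6: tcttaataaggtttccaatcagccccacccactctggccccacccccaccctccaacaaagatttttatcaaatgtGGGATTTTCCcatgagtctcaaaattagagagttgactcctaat

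Normalised reads are whole reads recovered from the deposited values and divided by the size factor of the library. H3.1 K36M was the shallowest library, at 45448249 reads against 61139941 in H3.3 K36M, and H3.1 K36R had 53199065 against 63433602 in H3.3 K36R, so depth and histone cannot be told apart. The mesenchymal markers were present, with 10 of 10 kept and summed levels of 745832 normalised reads in H3.1 K36M, against 556087 in H3.3 K36M. Of 11 epithelial markers, 4 were kept, with a summed level of 771 normalised reads in H3.1 K36M, against 978 in H3.3 K36M. All 4 had negative differences (median -0.41), with Krt19 at -1.02, and Epcam had 0 reads in both lines. Ptprc, which marks leukocytes, had 7.89 normalised reads in H3.1 K36M, against 7.63 in H3.3 K36M. Of the 6 kept leukocyte markers, however, 5 had positive differences (median 0.46), and their sums are given below with the inflammatory genes. In bulk RNA, fewer cells that use a gene and less of its RNA per cell cannot be told apart.

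More genes were higher than lower in H3.1 K36M. Of the 14462 kept genes, 794 differed by at least 1 on the log2 scale (5.49%), of which 556 were higher (3.84%) and 238 lower (1.65%) in H3.1 K36M than in H3.3 K36M. By at least 2, 89 were higher and 44 lower. The same count with K36R was 396 (2.74%), with 261 higher (1.8%) and 135 lower (0.933%). The filter used the K36M pair alone, and 13707 of the 14462 genes were also over it in the K36R pair. The K36R count and spread may be lowered by this. The other H3.3 line with a substitution known to inhibit the lysine 36 methyltransferases, H3.3 K36I, differed from H3.3 K36M in 177 of the 14462 genes (1.22%), 78 higher (0.539%) and 99 lower (0.685%). The SD of the difference over kept genes was 0.52 for H3.1 K36M minus H3.3 K36M, 0.40 for H3.1 K36R minus H3.3 K36R and 0.29 for H3.3 K36I minus H3.3 K36M, while the median was 0.01 with K36M and -0.01 with K36R.

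A K36M difference of at least 1 was called seen with K36R where the K36R difference was at least 1 in the same direction, partly seen from 0.5 to under 1, and not seen below that or where the sign turned. A gene low in both K36R lines has a compressed K36R difference and can count as not seen for that reason. Of the 556 genes higher in H3.1 K36M, 149 (26.8%) were seen, 128 (23%) partly seen and 279 (50.2%) not seen with K36R. Of the 238 lower genes, 30 (12.6%) were seen, 73 (30.7%) partly seen and 135 (56.7%) not seen. The genes higher in both H3.1 lines were thus a larger share of the higher genes than those lower in both were of the lower genes. Across the 14462 genes the 2 differences had a Pearson r of 0.46 and a Spearman rho of 0.35, given as a description, since genes are not independent and the libraries were prepared in 1 study.

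**Figure D1:**
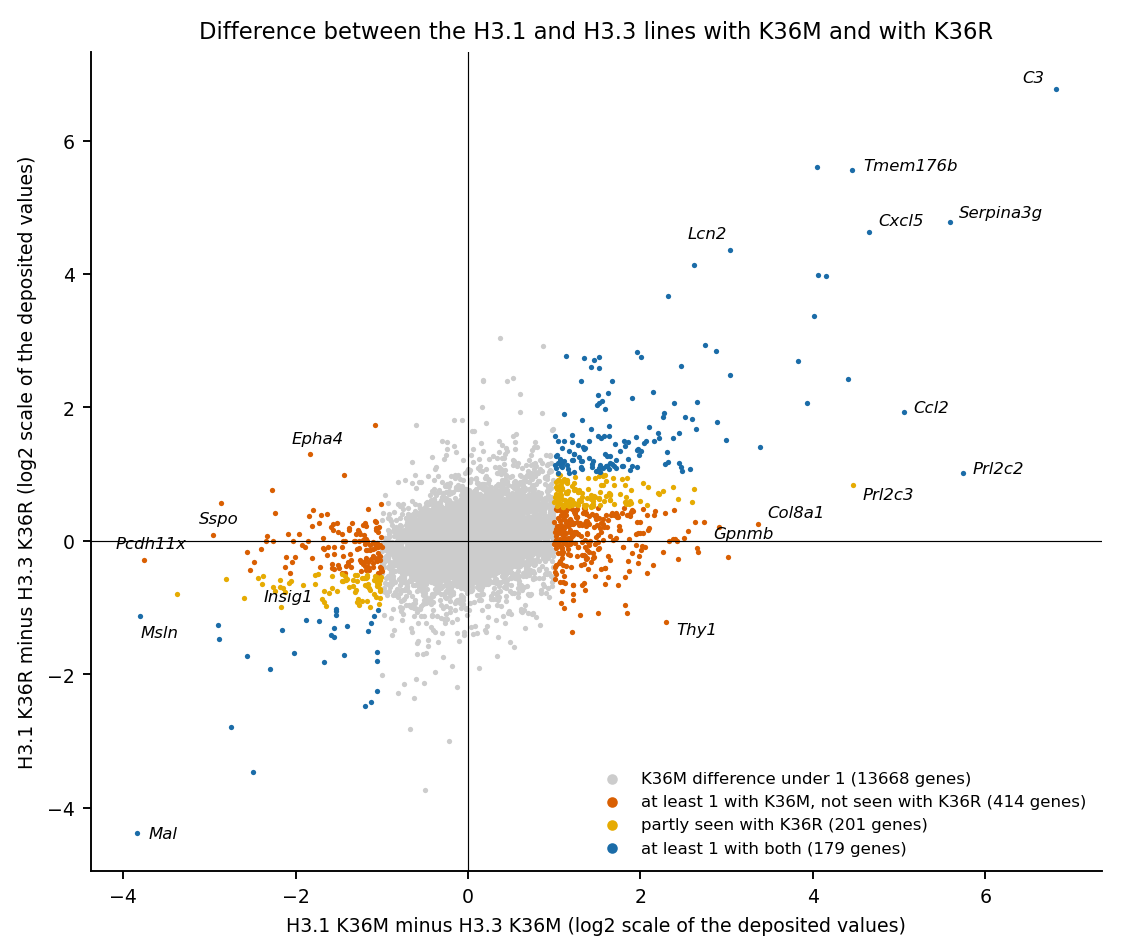
Each point is 1 of the 14462 kept genes, with H3.1 K36M minus H3.3 K36M across and H3.1 K36R minus H3.3 K36R up, both as log2 differences of the deposited values. C3 sits at 6.82 and 6.76 on the diagonal, whereas Prl2c3, at 4.47 and 0.84, and Col8a1, at 3.37 and 0.25, lie near the horizontal line.

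The 2 K36M libraries cannot be tested against each other, so H3.1 K36M was also set against H3.3 K36M and H3.3 K36I together with limma. The spread came from the H3.3 lines of like substitutions, and the lone H3.1 libraries were assumed to vary like them. In that fit 1315 of 14462 genes passed at an adjusted p under 0.05 (9.09%), with 768 higher (5.31%) and 547 lower (3.78%). Of the 556 genes higher by at least 1, 366 passed in that direction, as did 120 of the 238 lower genes. Both sets were chosen on H3.1 K36M minus H3.3 K36M, libraries that the test also uses, so these numbers are no separate support. The count rested on single libraries: 320 genes passed without H3.3 K36I, 402 without H3.3 K36M, 806 without H3.3 WT and 826 without H3.3 K36L. Without H3.3 K36I or H3.3 K36M the contrast sets 1 library against 1, which also costs power. H3.1 K36R, alone in its cell mean, has no part in this contrast, so leaving it out is no check. For single genes, "rose" and "fell" are therefore kept for those that passed with all 8 libraries and with each library except H3.1 K36M left out in turn, and all others are given by their values. The size after "rose by" or "fell by" is H3.1 K36M minus H3.3 K36M, and the tested difference, against H3.3 K36M and K36I together, follows where it is given. Of 88 named genes that passed, 44 met this. Among all kept genes, 479 had 1 of the 2 K36M libraries under the filter value, about 31 normalised reads. These were kept only through the line where they were high. They include Steap4, Serpina3f, Serpina3h, Saa3, Ccl8, Psmb8, Sspo, Wnt7b, Hhip and Car6. For such genes the filter favoured the direction found, and the test is no separate support.

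An interaction was tested in the same fit. It took H3.1 K36M minus the mean of H3.3 K36M and K36I. From this it subtracted H3.1 K36R minus the mean of the other 4 H3.3 lines. It is thus not the plain gap between the K36M and K36R differences used above. It called 0 genes in limma, where the smallest adjusted p was 0.124, while 1675 genes (11.6%) had an unadjusted p under 0.05. That a gene was not seen with K36R is therefore a description of 4 libraries, and no single kept gene passed the interaction. Without the filter on low values the same test called 798 of 23001 genes, 487 higher and 311 lower.

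The largest difference between H3.1 K36M and H3.3 K36M was that of C3, and several acute phase and complement genes were far higher in both H3.1 lines. C3, the central component of the complement cascade, had 16230.3 normalised reads in H3.1 K36M, against 47.7 in H3.3 K36M, and 25406 in H3.1 K36R, against 127 in H3.3 K36R. The remaining H3.3 lines had 18.7 to 92.0, so both H3.1 lines stood far above all 6 H3.3 lines. C3 rose by 6.82 with K36M, 340.1 times (95% counting interval 258 to 459) the level in H3.3 K36M (tested difference 7.04, SE 0.31, adjusted p = 0.000395), and the K36R difference was 6.76. Serpina3g, a serine protease inhibitor, had 8534 normalised reads in H3.1 K36M, against 77.3 in H3.3 K36M. Its level was 3363 in H3.1 K36R, against 33.2 in H3.3 K36R, and 19.2 to 91.9 in the other 4 H3.3 lines. Serpina3g rose by 5.59 (tested difference 5.53, SE 0.24, adjusted p = 0.000395), and its neighbours on chromosome 12, Serpina3f and Serpina3h, rose by 4.15 and 4.01. These are close relatives in sequence, so how their shared reads were divided is uncertain.

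Lcn2, an iron-siderophore binding protein of the acute phase, had 1508 normalised reads in H3.1 K36M, against 93.5 in H3.3 K36M, and 2251 in H3.1 K36R, against 24.7 in H3.3 K36R. It rose by 3.04 (tested difference 3.40, SE 0.35, adjusted p = 0.0048). Steap4, a metalloreductase induced by inflammation, had 911 normalised reads in H3.1 K36M, against 0 reads in H3.3 K36M, at least 318-fold higher against a floor of 3 reads. Its level was 1047 in H3.1 K36R, against 1.90 in H3.3 K36R, and the other 4 H3.3 lines had 0 to 5.10, so both H3.1 lines stood above all 6 H3.3 lines (K36R difference 3.98). Over all kept genes, 3.84% were higher by at least 1, and the test called 5.31% higher. In the list of complement and acute phase genes, 17 were kept, 8 were higher by at least 1 and 1 was lower, with a median difference of 0.80 beside 0.01 over all kept genes. With K36R the same list had 9 higher and 3 lower and a median of 1.41. Of its members, 8 passed the test in the higher direction and 7 or 8 did with each library left out.

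One acute phase gene was high in H3.1 K36M only. Saa3, a serum amyloid A protein made in inflamed tissue, had 472 normalised reads in H3.1 K36M, against 11.5 in H3.3 K36M. Both K36R lines were low, with 8.75 in H3.1 K36R, against 1.90 in H3.3 K36R. Saa3 rose by 2.63 (tested difference 2.77, SE 0.22, adjusted p = 0.00317), and its K36R difference was 0.29, from 8 reads in H3.1 K36R and 2 in H3.3 K36R. The deposited scale compresses differences of such low genes, so a difference with K36R could not be judged.

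Cytokines and chemokines had the highest median of the 47 lists. Cxcl5, which attracts neutrophils, had 29565 normalised reads in H3.1 K36M, against 1059 in H3.3 K36M, and 10180.1 in H3.1 K36R, against 300.1 in H3.3 K36R. In the other 4 H3.3 lines it had 115 to 466. Cxcl5 rose by 4.65 (tested difference 5.16, SE 0.47, adjusted p = 0.00429), and the K36R difference was 4.64. Cxcl1, another neutrophil attractant, had 6136 normalised reads in H3.1 K36M, against 732 in H3.3 K36M, and 7290.4 in H3.1 K36R, against 911 in H3.3 K36R, differences of 2.88 and 2.85. Il6, the cytokine that drives the acute phase, had 647 normalised reads in H3.1 K36M, against 49.6 in H3.3 K36M, and 719 in H3.1 K36R, against 179 in H3.3 K36R. Both H3.1 lines were above all 6 H3.3 lines for Cxcl1 and Il6, with 395 to 911 and 22.1 to 179 normalised reads in the 5 other H3.3 lines. Each passed the test (adjusted p = 0.0123 and 0.0101, limma) but not without H3.3 K36I.

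The monocyte attractant Ccl2 had 30706 normalised reads in H3.1 K36M, against 805 in H3.3 K36M. H3.3 K36I, however, had 6102 normalised reads, close to the 6184 of H3.1 K36R, and the other H3.3 lines had 1523 in K36R, 1162 in K36A, 1279 in K36L and 475 in WT. Its difference of 5.06 did not pass the test (adjusted p = 0.0764, limma). Ccl8, a monocyte attractant encoded near Ccl2 on chromosome 11, rose by 2.50 (tested difference 2.38, SE 0.25, adjusted p = 0.00492), at 304 normalised reads in H3.1 K36M, against 1.91 in H3.3 K36M, and was near the floor in both K36R lines, with 8.75 in H3.1 K36R, against 7.60 in H3.3 K36R. Over all kept genes, 3.84% were higher by at least 1, and the test called 5.31% higher. Of 16 kept cytokines and chemokines, 8 were higher by at least 1 and 0 lower (median 1.24), and with K36R also 8 and 0 (median 0.97). The test called 8 of them higher, 4 without H3.3 K36I and 6 to 8 without any other library.

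**Figure D2:**
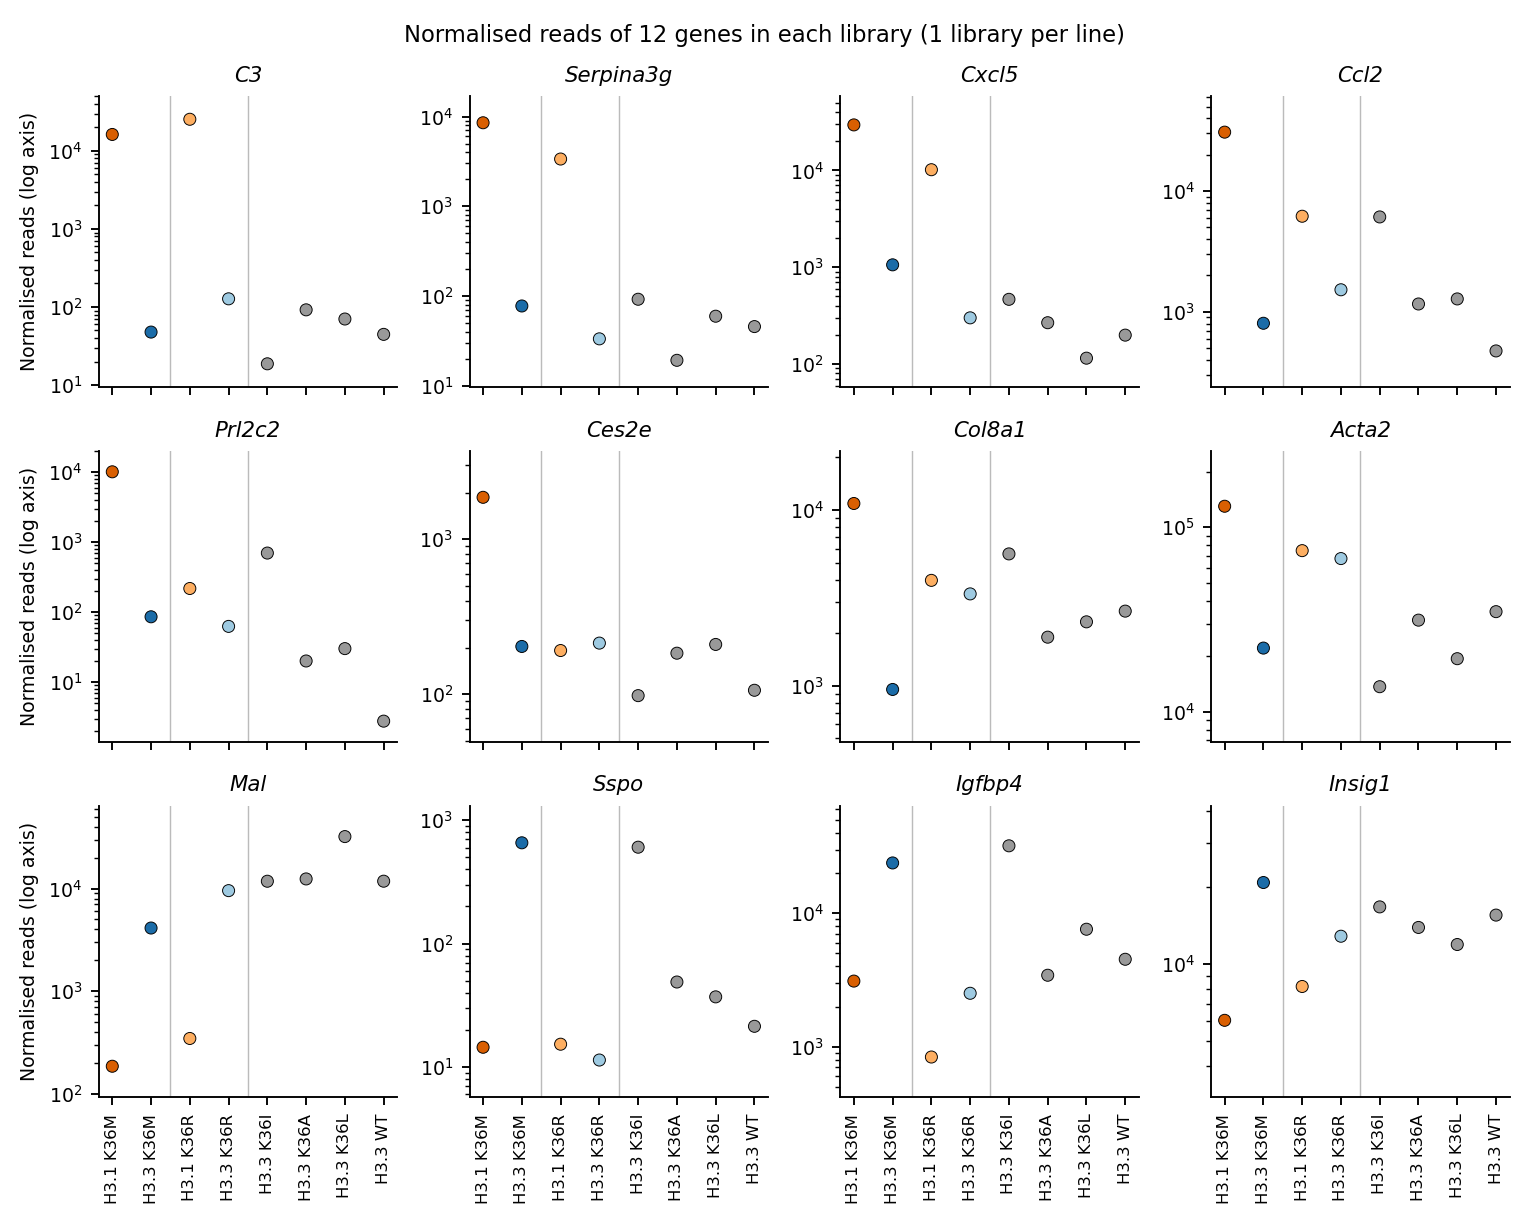
Normalised reads on a log axis are shown for 12 genes, 1 panel each, with 1 point per library and vertical lines between the K36M pair, the K36R pair and the other H3.3 lines. C3, Serpina3g and Cxcl5 are high in both H3.1 lines, Ces2e is highest in H3.1 K36M, and Sspo is high in H3.3 K36M and H3.3 K36I.

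Interferon-stimulated genes, which encode antiviral effectors and are switched on through STAT transcription factors, were higher in H3.1 K36M as a whole list. All 36 kept members had a positive difference, 22 of them by at least 1, and the median was 1.06. The K36R differences were also all positive, with 18 of at least 1 and a median of 0.99. Of all kept genes, 3.84% were higher by at least 1 with K36M and 1.8% with K36R. H3.1 K36M stood above all 6 H3.3 lines in 34 of the 36 members, beside 26.1% of all kept genes. Over all kept genes the test called 5.31% higher and 3.78% lower. In this list it called 25 members higher and 0 lower. That number was 9 without H3.3 K36I, 16 without H3.3 K36M and 20 to 25 without any other library.

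Among them Iigp1, an interferon-inducible GTPase, had 977 normalised reads in H3.1 K36M, against 38.2 in H3.3 K36M, and 299.6 in H3.1 K36R, against 1.90 in H3.3 K36R. It rose by 3.04 (tested difference 3.07, SE 0.17, adjusted p = 0.00101). The guanylate-binding proteins Gbp3 and Gbp7 rose by 2.26 and 2.04, at 544 normalised reads in H3.1 K36M, against 42.0 in H3.3 K36M, and 618 normalised reads in H3.1 K36M, against 76.3 in H3.3 K36M. Trim30a had 3257 normalised reads in H3.1 K36M, against 493 in H3.3 K36M, a difference of 2.47, and 446 in H3.1 K36R, against 9.50 in H3.3 K36R. Irf7, an amplifier of the interferon response, had the smallest K36M difference of the list, 0.02, with 105 normalised reads in H3.1 K36M, against 102 in H3.3 K36M. Its K36R difference was 1.07.

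The interferon response element, searched as fixed letters on both strands from 250 bases before to 50 after the start, was found in 15 of 24 interferon-stimulated genes with a RefSeq promoter (62.5%), against 1079 of 27025 promoters in all (3.99%) and 350 of 9718 kept genes (3.60%). It was in 17 of 98 genes higher by at least 1 and seen with K36R (17.3%), in 8 of 190 higher genes not seen with K36R (4.21%) and in 7 of 150 lower genes (4.67%). Members of the interferon list are among the 98. The kappaB site was in 3 of 11 cytokine and chemokine promoters (27.3%), against 0.466% of all promoters. The sterol regulatory element was in 1 of 14 cholesterol synthesis promoters (7.14%), against 1.44% of all promoters, and in 2 of 150 lower genes (1.33%). These are matches of letters, with no measure of binding.

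MHC class I antigen presentation genes were likewise higher throughout, and more of them differed by at least 1 with K36M than with K36R. All 17 kept members had positive differences with both substitutions, 9 of at least 1 with K36M (median 1.09) and 1 with K36R (median 0.71). Of all kept genes, 3.84% were higher by at least 1 with K36M and 1.8% with K36R. H3.1 K36M stood above all 6 H3.3 lines in all 17, beside 26.1% of all kept genes, of which the test called 5.31% higher. B2m, the light chain shared by class I molecules, had 79043 normalised reads in H3.1 K36M, against 22366 in H3.3 K36M. It had 29209 in H3.1 K36R, against 16348 in H3.3 K36R, and 13261 to 22045 in the other 4 H3.3 lines. B2m rose by 1.82, 3.53 times (95% counting interval 3.48 to 3.59) the level in H3.3 K36M (tested difference 1.83, SE 0.13, adjusted p = 0.00288), and its K36R difference was 0.83. Psmb8, a subunit of the immunoproteasome, rose by 1.88 (tested difference 1.85, SE 0.16, adjusted p = 0.00317), at 269 normalised reads in H3.1 K36M, against 17.2 in H3.3 K36M. Its K36R difference was 0.37, at 19.7 normalised reads in H3.1 K36R, against 5.70 in H3.3 K36R, where the deposited scale compresses differences. The class I heavy chain genes H2-D1 and H2-Q4 differed by 1.52 and 1.60 with K36M and by 0.64 and 0.89 with K36R. They belong to a family of near copies, so their reads may be shared. The peptide transporter gene Tap1 had 1973 normalised reads in H3.1 K36M, against 866 in H3.3 K36M, and 751 in H3.1 K36R, against 354 in H3.3 K36R. The test called 11 of the 17 higher, against 2 without H3.3 K36I, 5 without H3.3 K36M, 6 without H3.3 WT and 9 to 11 without any other library.

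Markers of leukocytes, which express many of these genes, were low except for 2. Of 14 listed, 6 were kept and 0 differed by at least 1, beside 5.49% of all kept genes. Their summed level was 16077 normalised reads in H3.1 K36M, against 9793 in H3.3 K36M, of which Cd53 gave 9176 and 4564 and Lcp1 5266 and 4130.4. The sums were 1266 in H3.1 K36R and 681 in H3.3 K36R, and 3 of the 14 were at 0 in each K36M library. Their part in the results on inflammatory genes was not tested.

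**Figure D3:**
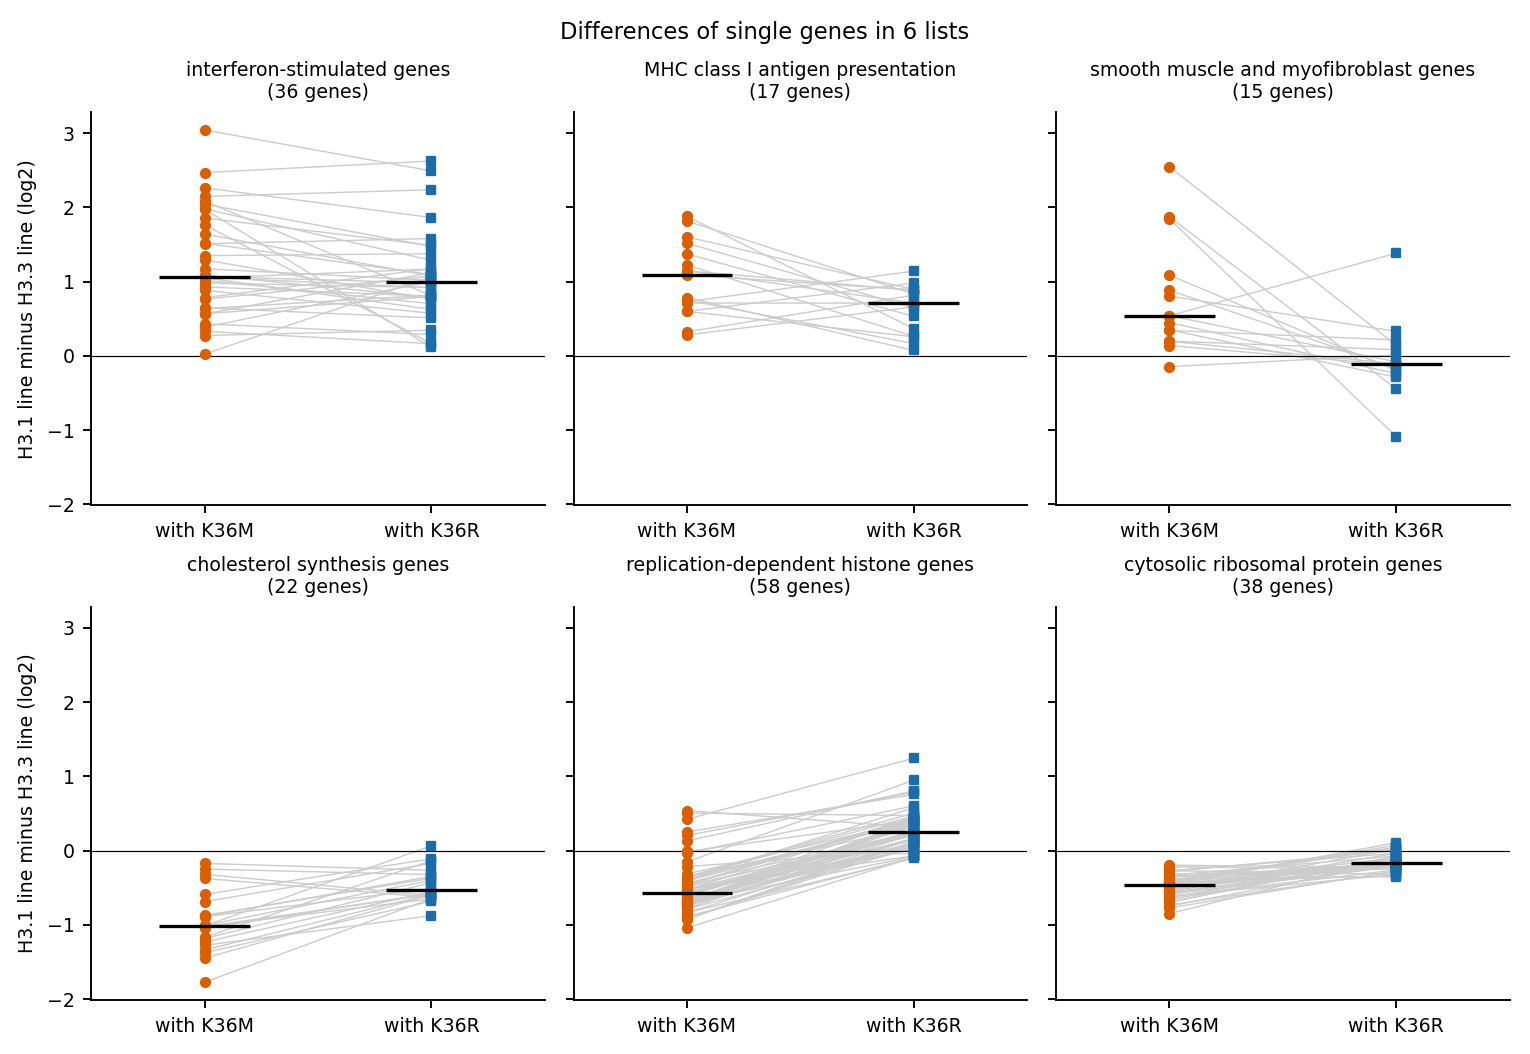
Each line joins the K36M difference (left) and the K36R difference (right) of 1 gene in 6 lists, with the list median as a bar. Interferon-stimulated genes have medians of 1.06 and 0.99, cholesterol synthesis genes -1.02 and -0.53, and replication-dependent histone genes -0.57 and 0.24.

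Differences of the proliferin genes were larger with K36M than with K36R. Prl2c2, a secreted growth factor of the prolactin family, had 10050.5 normalised reads in H3.1 K36M, against 85.9 in H3.3 K36M. It had 218 in H3.1 K36R, against 62.7 in H3.3 K36R, while the other H3.3 lines had 697 with K36I and 2.79 as WT at the extremes. Prl2c2 rose by 5.75 (tested difference 4.69, SE 0.79, adjusted p = 0.0182), and its K36R difference was 1.02. Prl2c3 rose by 4.47 (tested difference 4.01, SE 0.37, adjusted p = 0.00437), at 8196 normalised reads in H3.1 K36M, against 262 in H3.3 K36M, and 128 in H3.1 K36R, against 37 in H3.3 K36R. Prl2c5 differed by 1.79 with K36M and by -0.09 with K36R. These genes on chromosome 13 are near copies of each other, so the split of reads among them is uncertain.

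The 279 genes higher by at least 1 and not seen with K36R were sorted by which K36M line departed from the K36R line of the same histone. Of them, 173 passed the test, which uses the same K36M libraries that chose them. In 112 of the 279, H3.1 K36M exceeded H3.1 K36R by at least 1 and H3.3 K36M was not below H3.3 K36R by as much. Ces2e, a carboxylesterase, had 1868 normalised reads in H3.1 K36M, against 203 in H3.3 K36M, and 191 in H3.1 K36R, against 214 in H3.3 K36R. With 97.8 to 209 in the other 4 H3.3 lines, H3.1 K36M was 9.19 times (95% counting interval 7.95 to 10.7) the level of H3.3 K36M, and Ces2e rose by 2.66 (tested difference 2.98, SE 0.34, adjusted p = 0.00644). Mdm2, the ubiquitin ligase of p53, had 17832 normalised reads in H3.1 K36M, against 6145 in H3.3 K36M, and 5664 in H3.1 K36R, with 4949 to 6499.7 in the 5 other H3.3 lines. Mdm2 rose by 1.52 (tested difference 1.52, SE 0.16, adjusted p = 0.00467).

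Gpnmb, a transmembrane glycoprotein, and Tnfrsf26, a decoy receptor of the tumour necrosis factor family, were high in the lines with K36M or K36I and highest in H3.1 K36M. Gpnmb had 2998 normalised reads in H3.1 K36M, against 351 in H3.3 K36M, with 296 in H3.3 K36I and at most 8.75 in the remaining 5 lines. It rose by 2.74 (tested difference 2.83, SE 0.22, adjusted p = 0.00288). Tnfrsf26 had 1508 normalised reads in H3.1 K36M, against 111 in H3.3 K36M, 298 in H3.3 K36I and no more than 19.7 in any other line, the value of H3.1 K36R. It rose by 2.91 (tested difference 2.45, SE 0.34, adjusted p = 0.012).

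In 99 of the 279 genes H3.3 K36M was below H3.3 K36R by at least 1 while H3.1 K36M did not exceed H3.1 K36R by as much. In such genes H3.1 K36M could also be below H3.1 K36R, as it was in Adamts12 and Tnfrsf11b. Adamts12, a secreted metalloproteinase, had 802 normalised reads in H3.1 K36M, against 219 in H3.3 K36M, with 275 in H3.3 K36I. It had 2296 in H3.1 K36R, against 2385 in H3.3 K36R, and 2486, 2249.7 and 2415 in H3.3 K36A, K36L and WT. Adamts12 rose by 1.47 (tested difference 1.36, SE 0.13, adjusted p = 0.00448), and yet H3.1 K36M was below all lines without K36M or K36I. Maml2, a coactivator of Notch signalling, rose by 1.60 (tested difference 1.61, SE 0.18, adjusted p = 0.00656), with 2219 normalised reads in H3.1 K36M, against 656 in H3.3 K36M, 644 in H3.3 K36I, and 2752 in H3.1 K36R, against 2076 in H3.3 K36R. Tnfrsf11b, which encodes the decoy receptor osteoprotegerin, had 2124 normalised reads in H3.1 K36M, against 597 in H3.3 K36M, and 11153 in H3.1 K36R, against 13690.0 in H3.3 K36R, a difference of 1.65. Of the 279 genes, 4 met both criteria and 64 neither.

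Of the smooth muscle and myofibroblast genes 14 of 15 had positive differences, but few passed the test, and matrix genes were mixed. Acta2, smooth muscle actin, had 129877 normalised reads in H3.1 K36M, against 22119.8 in H3.3 K36M, and 74638 in H3.1 K36R, against 67598 in H3.3 K36R. The other H3.3 lines had 13661 in K36I, 31352 in K36A, 19378 in K36L and 34856 in WT, so H3.1 K36M was the highest of the 8. The difference was 2.55 (adjusted p = 0.0391, limma, lost without H3.3 K36M, K36I, K36A or WT). Myl9 and Tagln, also of the contractile apparatus, differed by 1.87 and 1.85 (adjusted p = 0.179 and 0.139, limma). Over all kept genes, 3.84% were higher by at least 1, and the test called 5.31% higher. Of 15 kept smooth muscle and myofibroblast genes, 4 were higher by at least 1 and 0 lower (median 0.54), while with K36R 1 was higher and 1 lower (median -0.11). The test called 3 of them, 0 without H3.3 K36M or without H3.3 K36I, 1 without H3.3 K36A or without H3.3 WT, 5 without H3.3 K36R and 3 without either other library.

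Postn, the matricellular protein periostin, had 35468 normalised reads in H3.1 K36M, against 2216 in H3.3 K36M, and 31525 in H3.1 K36R, against 7430.4 in H3.3 K36R, with 1055 to 3649 in the other 4 H3.3 lines. Both H3.1 lines were above all 6 H3.3 lines, but the difference of 3.93 did not pass (adjusted p = 0.0523, limma). Col8a1, a short-chain collagen, had 10928 normalised reads in H3.1 K36M, against 951 in H3.3 K36M, and 3983 in H3.1 K36R, against 3334 in H3.3 K36R, and its difference of 3.37 did not pass either (adjusted p = 0.155, limma). H3.3 K36I had 5637. Col3a1, an interstitial collagen, had 203195 normalised reads in H3.1 K36M, against 97037 in H3.3 K36M, and 278454 in H3.1 K36R, against 277008 in H3.3 K36R. Of 31 kept interstitial collagen and elastic fibre genes, 8 were higher and 1, Efemp1, lower by at least 1 (median 0.25), beside 3 and 0 with K36R (median -0.01). The K36M shares over all kept genes were 3.84% higher and 1.65% lower. The test called 2 higher and 1 lower, close to the 5.31% and 3.78% of all kept genes. The higher count was 1 without H3.3 K36M, 6 without H3.3 K36R and 2 or 3 without any other library, and the lower call was lost without H3.3 K36I.

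Lama4, a laminin chain of basement membranes, rose by 2.22 (tested difference 2.06, SE 0.17, adjusted p = 0.00317), with 30041 normalised reads in H3.1 K36M, against 6351 in H3.3 K36M. H3.1 K36R was at the same level, 29175 normalised reads, while the 5 other H3.3 lines lay between, at 7987 to 17842. Another laminin chain gene, Lama5, went the other way, with 1711 normalised reads in H3.1 K36M, against 8052 in H3.3 K36M, a difference of -2.16. H3.3 K36I was at 9825 and the lines without K36M or K36I at 199 to 1649.5. Over all kept genes, 3.84% were higher and 1.65% lower by at least 1, and the test called 5.31% higher and 3.78% lower. Of 17 kept basement membrane genes 2 were higher and 2 lower by at least 1 (median 0.62), and the test called 2 higher and 1 lower, against 1 to 4 and 0 or 1 with each library left out. Fst, which binds and blocks activins, rose by 2.44 (tested difference 2.31, SE 0.20, adjusted p = 0.00317), at 2546 normalised reads in H3.1 K36M, against 375 in H3.3 K36M, and 4398 in H3.1 K36R, against 1353 in H3.3 K36R. Vcam1, an adhesion molecule for leukocytes, rose by 1.55 with K36M and had a K36R difference of 1.54 (tested difference 1.44, SE 0.19, adjusted p = 0.0106).

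Cholesterol synthesis genes had the lowest median of the 47 lists. All 22 kept members had a negative difference, 13 of at least 1 (median -1.02), while 1.65% of all kept genes were lower by at least 1. H3.1 K36M lay below all 6 H3.3 lines in 20 of the 22, beside 24.5% of all kept genes. With K36R, 21 of the 22 were negative but 0 reached 1, and the median was -0.53. The test called 18 lower and 0 higher, beside 3.78% and 5.31% of all kept genes. Without H3.3 K36I 11 were called, without H3.3 K36M 12, and without any other library 16 to 18.

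Insig1, the sterol-regulated protein that retains the SREBP activator in the endoplasmic reticulum, had 6037 normalised reads in H3.1 K36M, against 20914 in H3.3 K36M. It had 8190.2 in H3.1 K36R, against 12886 in H3.3 K36R, and 11958 to 16787 in the other 4 H3.3 lines. Both H3.1 lines were thus below all 6 H3.3 lines, and H3.3 K36M was 3.46 times (95% counting interval 3.36 to 3.58) the level of H3.1 K36M. Insig1 fell by 1.77 (tested difference -1.61, SE 0.18, adjusted p = 0.00656), and its K36R difference was -0.65. Of the pathway's enzymes, lanosterol synthase Lss fell by 1.45, the prenyl diphosphate synthase Fdps by 1.38 and the lanosterol demethylase Cyp51 by 1.34. Their tested differences were -1.50 (SE 0.13, adjusted p = 0.00317), -1.43 (SE 0.10, adjusted p = 0.00288) and -1.34 (SE 0.14, adjusted p = 0.00467, limma). Lss, Fdps and Cyp51 have exons that overlap another annotated gene, whose reads cannot be separated.

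Trib3, a pseudokinase induced in the integrated stress response, fell by 2.13 (tested difference -2.13, SE 0.18, adjusted p = 0.00328). It had 2972 normalised reads in H3.1 K36M, against 13378 in H3.3 K36M, and 6179.6 in H3.1 K36R, against 8156 in H3.3 K36R, with 7474 to 13505 in the other 4 H3.3 lines. H3.1 K36M was the lowest of the 8. Over all kept genes, 1.65% were lower by at least 1, and the test called 3.78% lower. The list of unfolded protein response genes as a whole had 1 of 16 kept members lower by at least 1, Trib3 itself, and 0 higher (median -0.18). The test called 5 lower, 1 without H3.3 K36M, 1 without H3.3 K36I, 2 without H3.3 K36L and 4 or 5 without any other library.

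**Figure D4:**
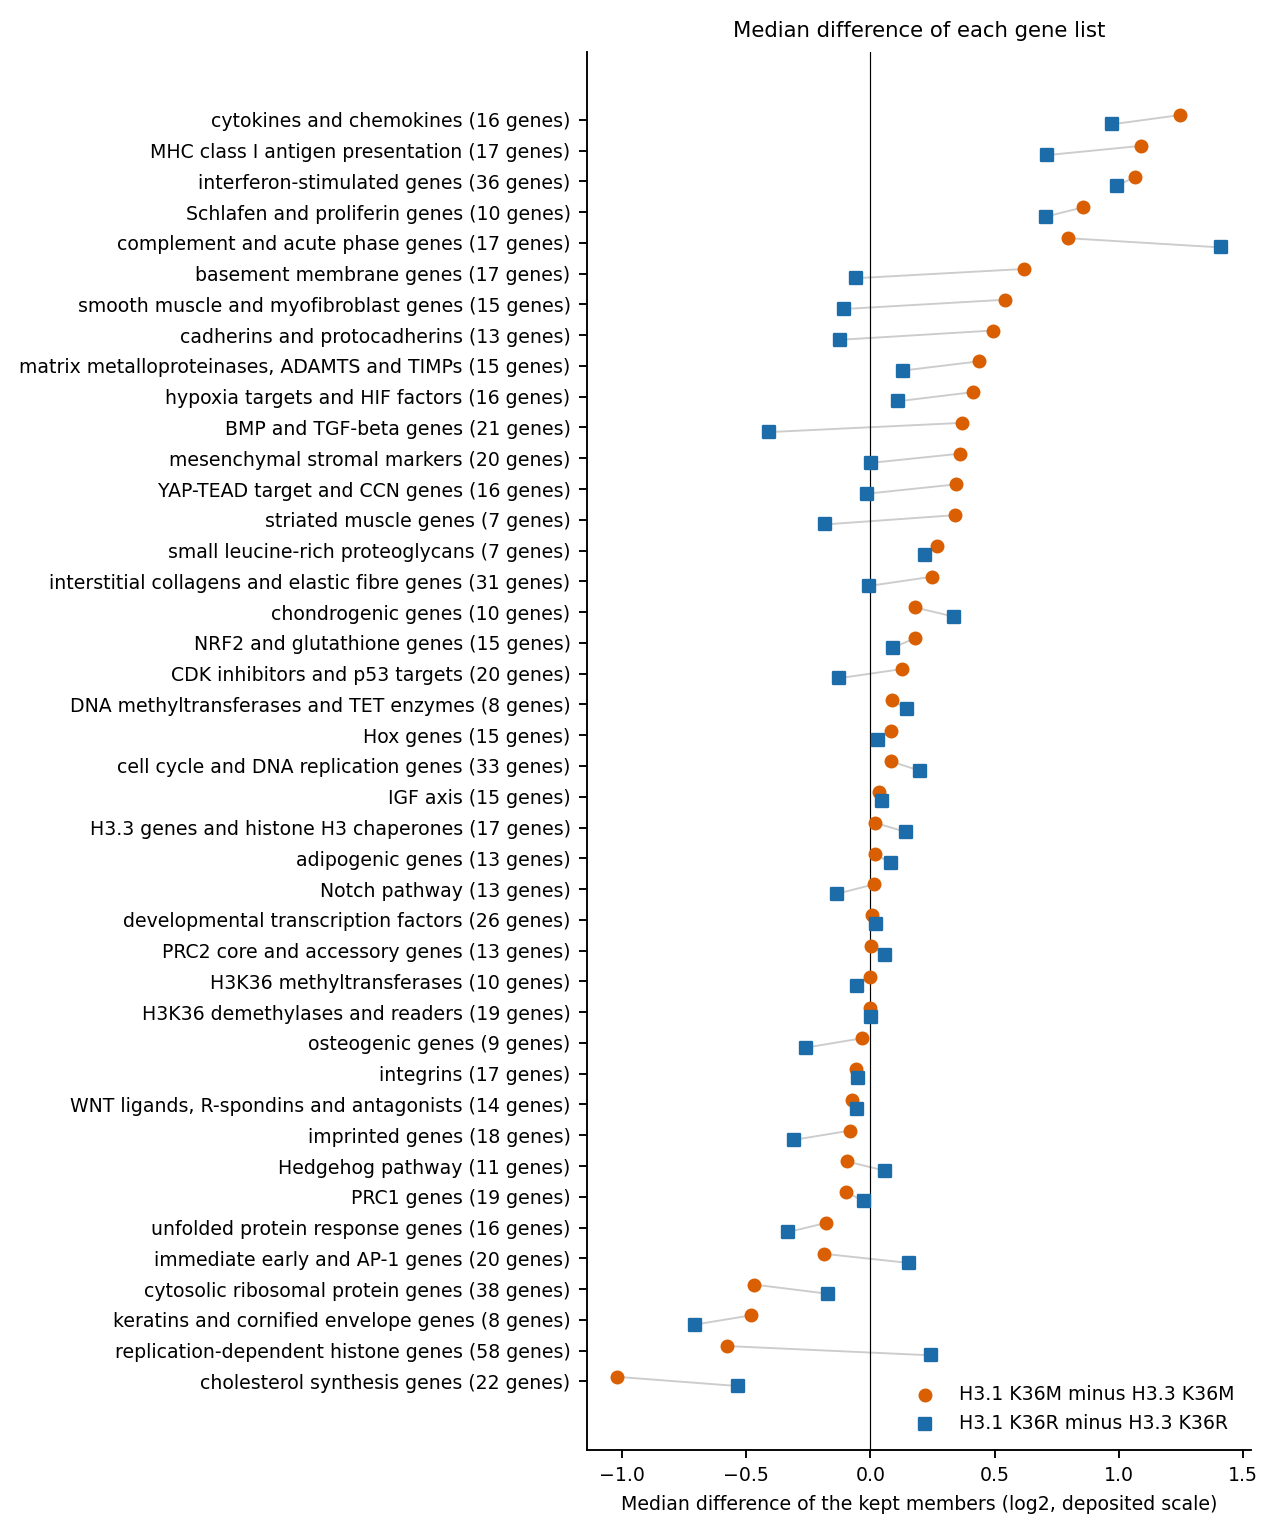
Median differences of 42 gene lists over their kept members are plotted, with circles for H3.1 K36M minus H3.3 K36M and squares for H3.1 K36R minus H3.3 K36R. Cytokines and chemokines are at the top with a K36M median of 1.24, cholesterol synthesis genes at the bottom with -1.02, and chromatin lists such as PRC2 at 0.

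Several of the lower genes had most of their reads in H3.3 K36M and H3.3 K36I. Sspo, which encodes the secreted glycoprotein SCO-spondin, had 14.5 normalised reads in H3.1 K36M, against 656 in H3.3 K36M, and 604 in H3.3 K36I. It had 15.3 in H3.1 K36R, against 11.4 in H3.3 K36R, and 48.8 or less in H3.3 K36A, K36L and WT. Sspo fell by 2.95 (tested difference -2.90, SE 0.26, adjusted p = 0.00378), and H3.1 K36M was at the level of the lines without K36M or K36I. Wnt7b, a WNT ligand, fell by 2.40 (tested difference -2.22, SE 0.22, adjusted p = 0.00452), at 5.26 normalised reads in H3.1 K36M, against 323 in H3.3 K36M and 229 in H3.3 K36I. Ccr7, a chemokine receptor, fell by 2.48 (tested difference -2.19, SE 0.32, adjusted p = 0.0142), at 35.5 normalised reads in H3.1 K36M, against 608 in H3.3 K36M and 366 in H3.3 K36I. Hhip, which binds Hedgehog ligands, fell by 1.27 (tested difference -1.23, SE 0.14, adjusted p = 0.00656), with 7.89 normalised reads in H3.1 K36M, against 107 in H3.3 K36M, 97.0 in H3.3 K36I and 0 reads in the other 5 lines.

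Pcdh11x, a protocadherin, had the same high lines, at 124 normalised reads in H3.1 K36M, against 2990.0 in H3.3 K36M and 2636 in H3.3 K36I, while K36A (833) and K36L (394) were also above WT (16.7). Its difference of -3.75 did not pass (adjusted p = 0.129, limma). Msln, the surface protein mesothelin, had 820.1 normalised reads in H3.1 K36M, against 12955 in H3.3 K36M and 9653 in H3.3 K36I, a difference of -3.80 that did not pass (adjusted p = 0.0589, limma). The insulin-like growth factor binding protein Igfbp4 had 3104 normalised reads in H3.1 K36M, against 23844 in H3.3 K36M, 32041 in H3.3 K36I and 837 in H3.1 K36R, against 2515 in H3.3 K36R, and its difference was -2.89. Among the 135 lower genes not seen with K36R, H3.3 K36M exceeded H3.3 K36R by at least 1 in 84 where H3.1 K36M was not below H3.1 K36R by as much. The reverse held in 18, both in 0 and neither in 33.

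A smaller set was low in both H3.1 lines. Mal, a membrane proteolipid, had 187 normalised reads in H3.1 K36M, against 4129 in H3.3 K36M, and 348 in H3.1 K36R, against 9543 in H3.3 K36R, with 11782 to 32034 in the other 4 H3.3 lines. Both H3.1 lines were below all 6 H3.3 lines, with differences of -3.84 and -4.38 (adjusted p = 0.0194, limma, lost without H3.3 K36I). Car6, a secreted carbonic anhydrase, fell by 2.56 (tested difference -2.81, SE 0.35, adjusted p = 0.0083), at 5.26 normalised reads in H3.1 K36M, against 371 in H3.3 K36M, and 71.1 in H3.1 K36R, against 456 in H3.3 K36R. Cdsn, the adhesion protein corneodesmosin, fell by 3.38 (tested difference -3.51, SE 0.35, adjusted p = 0.00452), at 405 normalised reads in H3.1 K36M, against 5296 in H3.3 K36M, and had a smaller K36R difference of -0.79. Medag, an adipogenesis gene, had 1588 normalised reads in H3.1 K36M, against 11322 in H3.3 K36M, and 186 in H3.1 K36R, against 1927 in H3.3 K36R, differences of -2.74 and -2.79 that did not pass in the K36M test (adjusted p = 0.0833, limma).

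The place of the K36M lines among the other libraries was counted in 2 ways that are not comparable with each other. Leaving H3.1 K36R aside, H3.1 K36M lay above all 6 H3.3 lines in 441 of the 556 higher genes, beside 26.1% of all kept genes, and below all 6 in 139 of the 238 lower genes, beside 24.5%. H3.3 K36M was the lowest of all 8 libraries in 131 of the 556, beside 11.6%, and the highest of all 8 in 119 of the 238, beside 13.6%. These counts use the same library values as the difference and describe where it lies.

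Replication-dependent histone genes, which are transcribed in S phase and supply H3.1 among others, were mostly lower in H3.1 K36M. Of 58 kept members, 52 had a negative K36M difference (median -0.57), of at least 1 in Hist2h4 only (-1.04), while 52 had a positive K36R difference (median 0.24). Their summed level was 250745 normalised reads in H3.1 K36M, against 359104 in H3.3 K36M, and 402944 in H3.1 K36R, against 331655 in H3.3 K36R. Hist1h4f had 4153 normalised reads in H3.1 K36M, against 8000.2 in H3.3 K36M, and 6874 in H3.1 K36R, against 6108 in H3.3 K36R. Hist1h3a, the H3.1 gene printed above, had 3752 normalised reads in H3.1 K36M, against 3134 in H3.3 K36M, a difference of 0.25. Reads of the H3.1 transgene that match Hist1h3a could be among them, so this may not be the level of the cell's own gene. Over all kept genes, 1.65% were lower by at least 1, and the test called 3.78% lower. The test called 31 of the 58 lower, but 2 without H3.3 K36I and 4 without H3.3 K36M, and 21 to 37 without any other library. In the interaction 47 of the 58 had an unadjusted p under 0.05 beside 11.6% of all kept genes, and 0 passed after adjustment.

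Cell cycle and DNA replication genes did not show the same difference, with 1 of 33 higher and 0 lower by at least 1, beside 3.84% and 1.65% of all kept genes, and a median of 0.08. That gene, Rrm2, a subunit of ribonucleotide reductase, rose by 1.34 (tested difference 1.37, SE 0.11, adjusted p = 0.00317), and its K36R difference was 0.43. Over all kept genes the test called 3.78% lower, and 24.5% lay below all 6 H3.3 lines. Ribosomal protein genes were lower, like the histone genes, with negative differences in all 38 (median -0.47, and -0.17 with K36R), 0 of at least 1, and 37 of the 38 below all 6 H3.3 lines. The test called 19 of these lower, 1 without H3.3 K36I, 1 without H3.3 K36M, 9 without H3.3 WT, 12 without H3.3 K36L and 15 to 19 without any other library. H3.1 K36M also had the fewest reads, and the part of depth in the differences of these short transcripts was not tested.

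The enzymes that write lysine 36 methylation differed by less than 1 in the 2 lines. Of 10 kept H3K36 methyltransferase genes 0 differed by at least 1, within -0.45 for Nsd1 and 0.48 for Whsc1l1, and the median was 0.00. Over all kept genes 5.49% differed by at least 1 and the test called 9.09%, so counts of 0 or 1 in 10 do not set these genes apart. The test called 1 of the 10, Setd5, at a tested difference of -0.45 (adjusted p = 0.0429, limma), and the call was lost without H3.3 K36M, K36I, K36A, K36L or WT. Setd2, which trimethylates lysine 36, had 7281 normalised reads in H3.1 K36M, against 5832 in H3.3 K36M, and Nsd1, which dimethylates it, 14718 normalised reads in H3.1 K36M, against 20127 in H3.3 K36M. The core subunits of PRC2, which methylates lysine 27 of H3, also had similar levels, with differences of 0.05 for Ezh2, 0.18 for Eed and 0.00 for Suz12. Setd2, Nsd1, Ezh2, Eed and Suz12 did not pass the test, at adjusted p = 0.14 for Setd2, 0.203 for Nsd1, 0.819 for Ezh2, 0.49 for Eed and 0.676 for Suz12 (limma). The H3.3 genes of the cell had 8434 normalised reads in H3.1 K36M, against 8170.1 in H3.3 K36M for H3f3a, and 43612 normalised reads in H3.1 K36M, against 54032 in H3.3 K36M for H3f3b, differences of 0.05 and -0.31. Reads of a transgene that match these genes could be among them, so they are no check of the transgenes.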

How the data were processed

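RNA-seq values were deposited for 8 libraries as 1 table of 31276 genes. Per the labels' protocols, RNA was isolated with Trizol and libraries were made by the Illumina TruSeq protocol, and per the submitters' processing notes Trimmomatic 0.32, STAR 2.3.0e, featureCounts 1.4.4, DESeq2 and mm10 were used. The sources used here do not give the annotation, the use of strand or the order of steps. The deposited log2 values are a variance-stabilising transformation by the authors, in which 5.95 stands for 0 reads and low genes have compressed differences. Inverting it gave whole reads for 100% of values within 0.001, and normalised reads are these divided by the size factor. Counting intervals and floors (3 reads, 3.94 normalised in H3.1 K36M, against 2.86 in H3.3 K36M) cover counting error only.

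Differences were taken between deposited columns, with 14462 genes kept and 16814 left out. Beside the limit, Mir7091 was inside with 36.8 normalised reads in H3.1 K36M, against 25.8 in H3.3 K36M, and Lbx2 outside with 35.5 against 26.7. All tests were two-sided and came from limma 3.58.1 (R 4.3.3), fitted with a trend on intensity and adjusted by Benjamini-Hochberg over all kept genes, with 4 cell means (H3.1 K36M, H3.1 K36R, H3.3 K36M with K36I, and the other 4 H3.3 lines), leaving 4 residual degrees of freedom. No label says that a line was cultured more than once, so p-values measure the spread between lines, part of which may be technical. The steps were tested on simulated data. The comparison, the 47 gene lists (981 of 992 genes in the table, 754 kept) and the rule for named genes were chosen with earlier results of these data known.

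The rule named, leaving out predicted and small RNA genes, the 10 largest K36M differences each way, the 8 largest not seen and the 5 largest seen with K36R each way, any gene past the interaction test, up to 4 members per list, and H3.3, H3K36 methyltransferase and PRC2 genes. Of 173 named genes 20 were added after their values were seen, among them Il6, Gbp7, Tap1, Irf7, Sqle, Hist1h3a, Rpl3, Ptprc, Epcam, Pecam1, Lcp1, Rn45s and 5 of the 7 genes of opposite sign, and Setd5 is named besides for the same reason. Coordinates came from GENCODE M21 for 168, and 52 have exons overlapping another gene, 42 on the opposite strand. Promoter motifs were searched as consensus letters taken from general knowledge, not from a deposited file. Results for some items are not reported here.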

Additional observations from a re-analysis of the deposited data

Results flagged for a closer look

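In 7 kept genes H3.1 minus H3.3 was at least 1 in size with both substitutions but of opposite sign, each from 1 library a side. The limma interaction called none of them after adjustment. It sets the H3.1 lines against means of H3.3 lines, so it does not test these differences alone. Thy1, a mesenchymal surface protein, differed by 2.3 with K36M and -1.22 with K36R (interaction adjusted p = 0.276). It had 5441 normalised reads in H3.1 K36M, against 1008 in H3.3 K36M, and 1249 in H3.1 K36R, against 3071 in H3.3 K36R. Tagln differed by 1.85 with K36M and -1.09 with K36R (adjusted p = 0.552, limma). Igsf10 differed by 1.51 with K36M and -1.08 with K36R (adjusted p = 0.884, limma), the matricellular gene Thbs1 by 1.30 with K36M and -1.11 with K36R (adjusted p = 0.325, limma) and the cannabinoid receptor gene Cnr1 by 1.20 with K36M and -1.36 with K36R (adjusted p = 0.937, limma). Epha4, an ephrin receptor, went the other way, by -1.83 with K36M and 1.30 with K36R (adjusted p = 0.237, limma). It had 86.7 normalised reads in H3.1 K36M, against 558 in H3.3 K36M, and 259 in H3.1 K36R, against 53.2 in H3.3 K36R, while H3.3 K36I had 1568. Dpep1, a dipeptidase, differed by -1.08 with K36M and 1.74 with K36R (adjusted p = 0.202, limma), with 794 normalised reads in H3.1 K36M, against 1808 in H3.3 K36M, and 792 in H3.1 K36R, against 162 in H3.3 K36R.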

How the results depend on the processing

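No transgene has a replicate, H3.1 K36M cannot be left out, and the interaction without an H3.1 library was not run because nothing would remain to estimate it. No paired analysis was possible because each group holds 1 library and the replicate numbers mark no pairs. The count of genes differing by at least 1 was 654 to 828 under other filters and with library medians set equal, and 1354 (890 higher, 464 lower) on log2 of normalised reads plus 8, where low genes are not compressed. The count not seen with K36R was 323 to 440 under the same filters and scaling, 284 and 547 with under 0.25 and under 0.75 as the limit, and 699 on log2 of normalised reads plus 8. The tested count of 1315 was 321 (216 higher, 105 lower) with H3.3 K36M as its own cell mean, and 320 to 1509 with each library left out. It was 1144 to 1850 under other filters and 1157 without the intensity trend. The interaction called 0 genes under all alternatives run except without a filter, where it called 798 (487 higher, 311 lower) of 23001 genes; the cause was not tested. With library medians set equal, all 47 list medians moved by less than their SD across the H3.3 lines other than K36M and K36I, and 7 to 14 moved under other filters or scales. Tested counts of lists without each library were added after seeing the data. They stand beside the lists whose tested count the report discusses, apart from the BMP and TGF-beta list. Of 88 named calls, 42 were lost without H3.3 K36I and 31 without H3.3 K36M. Depth limits genes with few reads in H3.1 K36M.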

Other observations

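Lists of cell fate and developmental genes lay close to the median of all kept genes. Over all kept genes, 3.84% were higher and 1.65% lower by at least 1. Of 15 kept Hox genes, 26 developmental transcription factors and 19 PRC1 genes, 0 were higher by at least 1 in H3.1 K36M and 1, Foxd1, was lower, with medians of 0.08, 0.01 and -0.10. Chondrogenic genes had 1 of 10 higher (median 0.18), and osteogenic genes 1 of 9 higher and 1 lower (median -0.03), which were Tnfrsf11b and Spp1. Spp1, the bone matrix protein osteopontin, had 34124 normalised reads in H3.1 K36M, against 106416 in H3.3 K36M, with 111860.0 in H3.3 K36I, and its difference of -1.64 did not pass (adjusted p = 0.108, limma). Adipogenic genes had 1 of 13 higher and 2 lower (median 0.02). Cebpd, an early adipogenic transcription factor, rose by 1.81 (tested difference 1.62, SE 0.15, adjusted p = 0.00448), and Agpat2, a lipid synthesis enzyme, fell by 1.24 (tested difference -1.12, SE 0.12, adjusted p = 0.00612). Pparg, the master regulator of fat cells, had 602 normalised reads in H3.1 K36M, against 1499 in H3.3 K36M, a difference of -1.17.

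Signalling lists held single genes with large differences. The shares over all kept genes were 3.84% higher and 1.65% lower by at least 1. In the BMP and TGF-beta list 6 of 21 kept genes were higher and 1, Id2, lower (median 0.37, and -0.41 with K36R). The test, however, called only 1 of the 21 higher and 0 lower, beside 5.31% and 3.78% of all kept genes. The YAP-TEAD target and CCN list had 2 of 16 higher (median 0.34), and hypoxia targets 2 of 16 higher and 1 lower (median 0.41). Matrix metalloproteinases, ADAMTS and TIMPs had 5 of 15 higher and 0 lower (median 0.44), integrins 1 of 17 higher and 3 lower (median -0.06) and cadherins 2 of 13 higher (median 0.49). Jag2, a Notch ligand, had 25.0 normalised reads in H3.1 K36M, against 439 in H3.3 K36M, a difference of -2.26, and Fas, the death receptor, had 3596 normalised reads in H3.1 K36M, against 486 in H3.3 K36M, a difference of 2.62. Impact, an imprinted inhibitor of the stress kinase GCN2, rose by 1.27 (tested difference 1.29, SE 0.10, adjusted p = 0.00288). The lists not described one by one include imprinted, IGF, Notch, Hedgehog, WNT, DNA methylation, histone chaperone and NRF2 genes. Their K36M medians lay between -0.19 for immediate early genes and 0.36 for mesenchymal stromal markers. Outside this range were the epithelial markers, 8 keratins and cornified envelope genes (-0.48) and 10 Schlafen and proliferin genes (0.85). Of these 10, 4 were higher by at least 1 and 0 lower.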
